A study of Mus musculus with 16 samples.

Results

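The 10 genes described here encode secreted acute phase and antimicrobial proteins: Saa3, Saa1, Saa2, Lcn2, Hp, Orm1, Wfdc17, Slpi, Pglyrp1 and Ptx3. They were picked by name out of the 54532 genes in each expression table, with earlier results for LPS against saline in these same libraries known, so their rise under LPS is the reason for the choice and is described below with no test. RNA-seq was performed on 16 libraries of pulmonary endothelial cells (ECs), which were isolated from mouse lungs with magnetic beads that removed CD45+ cells and then captured CD31+ cells. The first experiment used WT (wild-type) males of the strain C57/BL6J at an age of 8 weeks, which received saline (n = 4) or 10 mg/kg LPS (n = 6) into the trachea. In the second, Fgfr1 loxP/loxP mice (n = 3) and Fgfr1 iΔEC/iΔEC littermates (n = 3) all received 2 mg/kg LPS, so that experiment held no saline group. The iΔEC/iΔEC mice carried the floxed Fgfr1 alleles with VE-cadherin-CreERT2, a tamoxifen-inducible Cre driven by an endothelial promoter, and the loxP/loxP controls carried the same floxed alleles without the Cre. Both genotypes were given tamoxifen. Lungs were taken after 24 h in all groups. The labels number the libraries but do not say that each came from its own mouse, so p-values measure the spread between libraries, which may be technical in part.

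Acute phase proteins are plasma and tissue proteins whose synthesis climbs within hours of infection or injury, mostly in hepatocytes but also at the inflamed site. IL-1, TNF and IL-6 drive them through NF-κB, C/EBP and STAT3. Serum amyloid A proteins (Saa1, Saa2, Saa3) bind lipids and attract leukocytes, and Saa3 is the form made largely outside the liver in mice. Lipocalin 2 (Lcn2) starves bacteria of iron by binding their siderophores, haptoglobin (Hp) captures free haemoglobin, and orosomucoid 1 (Orm1) carries small lipophilic molecules. Slpi and Wfdc17 belong to the whey acidic protein (WAP) family, of which Slpi inhibits neutrophil serine proteases. Pglyrp1 recognises bacterial peptidoglycan, and the long pentraxin Ptx3 opsonises microbes and is made by endothelial and myeloid cells.

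The 3 serum amyloid genes lie close together on chromosome 7 of GRCm38, with Saa4 (46727998 to 46732603) between Saa3 and Saa1. Saa3 is at 46711998 to 46715700 and Saa1 at 46740497 to 46742980, both on the minus strand, and Saa2 is at 46751790 to 46754313 on the plus strand. The 250 bases before the RefSeq start of each are shown because Saa1 and Saa2 are near copies of each other there and Saa3 is not. The sequences are from RefSeq on build GRCm38.p6, at chr7:46742981-46743230 for Saa1 (minus strand), chr7:46751583-46751832 for Saa2 (plus strand) and chr7:46715677-46715926 for Saa3 (minus strand). The gene positions are those of GENCODE, whose most upstream starts differ, so the last 43 bases of the Saa2 sequence and the last 24 of the Saa3 sequence lie inside the gene as placed there. Each is written 5′ to 3′ on the strand of the gene, and capitals mark a match to TTNNGNAAT, a C/EBP-type motif that was searched on both strands and here matched on the opposite one.
Saa1: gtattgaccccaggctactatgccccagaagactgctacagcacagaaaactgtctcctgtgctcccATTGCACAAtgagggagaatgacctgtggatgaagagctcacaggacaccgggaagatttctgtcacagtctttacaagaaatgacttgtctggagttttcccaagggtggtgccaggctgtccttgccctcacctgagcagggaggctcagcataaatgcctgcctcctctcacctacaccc
Saa2: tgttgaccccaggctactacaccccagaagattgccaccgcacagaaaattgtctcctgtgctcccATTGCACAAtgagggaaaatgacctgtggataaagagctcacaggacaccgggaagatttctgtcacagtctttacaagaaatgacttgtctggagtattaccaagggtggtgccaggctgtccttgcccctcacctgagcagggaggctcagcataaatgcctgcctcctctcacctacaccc
Saa3: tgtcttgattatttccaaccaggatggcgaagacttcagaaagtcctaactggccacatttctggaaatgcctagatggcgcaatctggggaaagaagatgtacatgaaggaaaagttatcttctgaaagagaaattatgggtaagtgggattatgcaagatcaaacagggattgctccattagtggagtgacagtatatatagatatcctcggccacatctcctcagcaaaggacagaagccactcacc

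Over the RefSeq window that runs from 250 bases before to 50 bases after the start, the Saa1 and Saa2 sequences were identical in 287 of 301 alignment columns (95.3%), against 170 of 339 (50.1%) for Saa1 and Saa3. Both held a TTNNGNAAT match, which began 183 bases before the RefSeq start in Saa1 and 184 bases before it in Saa2. RefSeq windows were matched for 8 of the 10 genes, all but Hp and Orm1. TTNNGNAAT was found in 3 of the 8 windows (Saa1, Saa2 and Slpi) and in 11.5% of all 32851 windows. The κB consensus was found in 2 of the 8 (Pglyrp1 and Ptx3) and in 8.46% of all windows. A STAT-type motif, TTCNNNGAA, was found in 0 of the 8 against 8.3% of all windows, and TATAAA in 1 of the 8 (Wfdc17) against 13.6%. Neither the Saa3 nor the Lcn2 window held any of these letters. Each match is a description of the sequence only.

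The similarity of Saa1 and Saa2 reaches into the transcripts, where 31.1% of the 50-base words of Saa1 also occur in Saa2 and 30% of those of Saa2 in Saa1. Orm1 shares 20.4% of its words with Orm2. How the counting treated reads that fit both copies is not given in the sources used here, so the split between Saa1 and Saa2, and between Orm1 and Orm2, is uncertain. Saa3 shares 0.346% of its words with Saa1. Ptx3 lies inside Veph1 on the opposite strand, and Slpi spans the microRNA gene Mir7678 on its own strand.

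Depth was 13478726 to 18807007 gene reads in the saline libraries and 17840221 to 19043015 in the LPS libraries. It was 15969575 to 17002788 in the loxP/loxP libraries and 16642177 to 16943522 in the iΔEC/iΔEC libraries. Levels are FPKM, which is fragments scaled to the length of the gene and to a factor for each library. The deposited values already carry median-of-ratios factors in place of library size, since factors computed from the recovered reads differed from theirs by at most 0.182%. Differences are means of log2(FPKM + 1), which understates the change of genes near 0. All 10 endothelial markers had reads in each of the 16 libraries, and Cldn5, a tight junction protein, was the most abundant of them in each. Their summed level was above that of the 10 epithelial and of the 6 leukocyte markers in every library but loxP/loxP replicate 3, where it was 2399 FPKM beside 2948 FPKM of epithelial markers, and in LPS replicate 1 it was 1434 FPKM beside 1432 FPKM of leukocyte markers. Pecam1 (CD31) was at 400 ± 81.5 FPKM in saline and 358 ± 76.8 FPKM in LPS (SD, n = 4 and 6). Ptprc, which encodes CD45 and marks the cells the beads were to remove, was at 6.97 ± 3.13 FPKM in saline and 34.6 ± 11.4 FPKM in LPS. One saline library stood apart by its markers. The summed level of 8 neutrophil markers was 263 FPKM in saline replicate 1, against 15.2, 84.6 and 22.0 FPKM in replicates 2, 3 and 4. Results that rest on saline are therefore also given without replicate 1 where it moved them.

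In saline, Hp had the highest mean level of the 10 genes, and together they made up 0.00863% to 0.0519% of all FPKM, or at most 0.0136% without replicate 1. In LPS they made up 0.684% to 1.21%. Every LPS library lay above every saline library for all 10 genes. Among all 14893 genes tested, 22.7% had every LPS library above every saline library, and 11.9% were called higher and 6.79% lower, a call being a limma adjusted p of at most 0.05 with an absolute log2 difference of at least 1. Since this contrast chose the 10 genes, their count is not set against those shares.

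**Figure D1:**
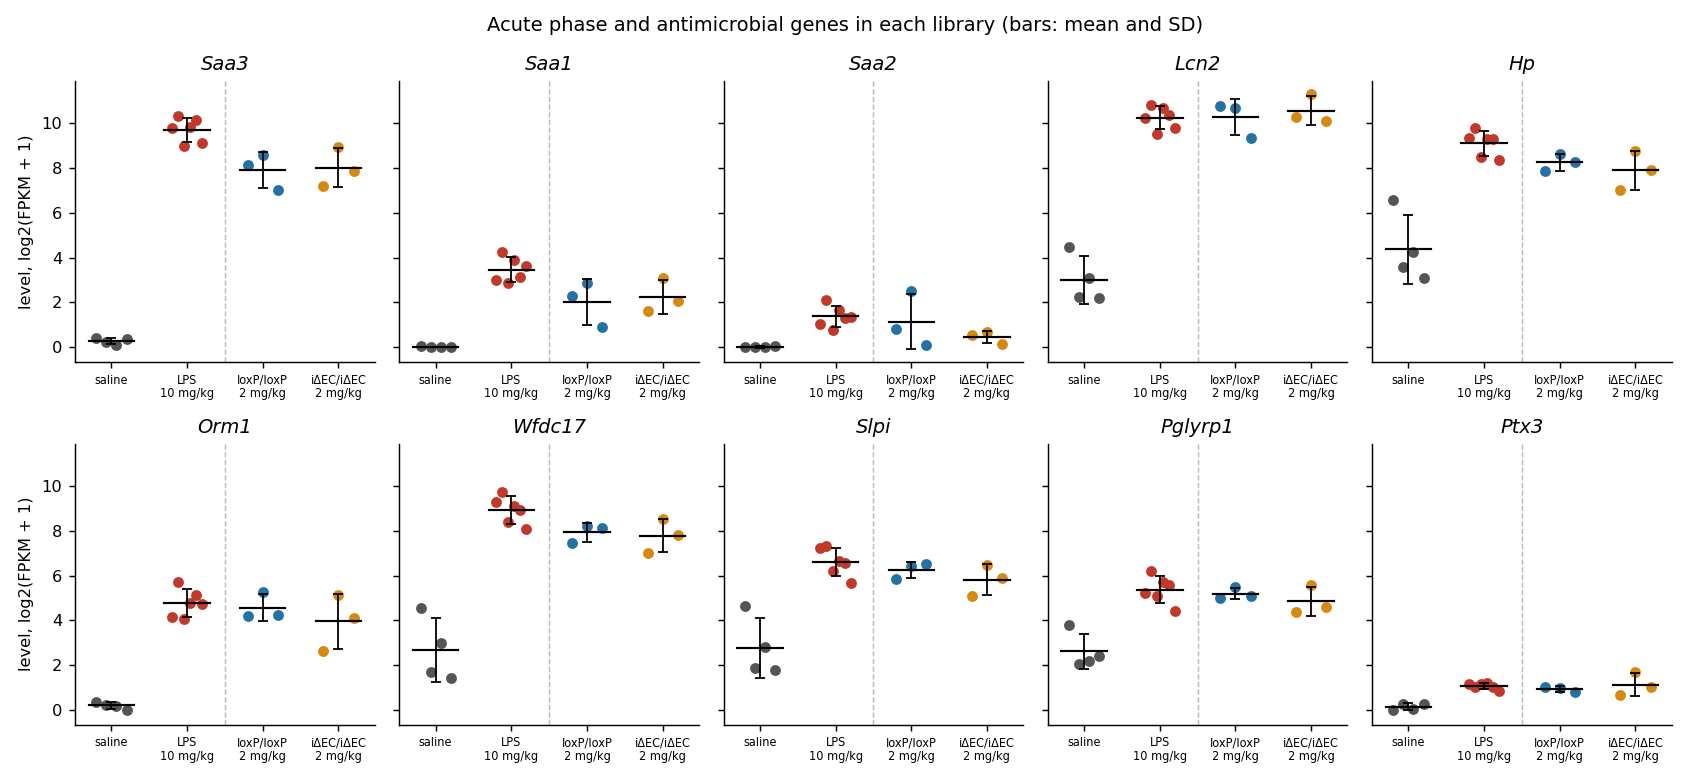
Level of each of the 10 genes, log2(FPKM + 1) on the y axis, in each library of the 4 groups on the x axis. Points are libraries, horizontal lines and bars are the mean and SD, and the dashed line parts the 2 experiments, which were normalised separately. The 6 LPS libraries lie above the 4 saline libraries in each panel, and the 3 loxP/loxP and 3 iΔEC/iΔEC libraries overlap in each panel.

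Among the serum amyloid genes, Saa3 was at 0.348, 0.173, 0.0859 and 0.292 FPKM in the 4 saline libraries, resting on 4 to 15 reads each. In LPS it ranged from 509 to 1279 FPKM, with a median of 898 FPKM and 24172 to 54095 reads a library. The groups were far apart, and Saa3 ranked between 16386 and 18610 among all genes in saline and between 19 and 48 in LPS. The difference was 9.41 (SE 0.25) on the log2(FPKM + 1) scale. Measured on reads, which do not carry the pseudocount, the rate was 4007 times that of saline (95% exact interval 2954 to 5585). This interval and those below pool the reads of a group and cover counting error only, not the spread between libraries.

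Saa1 gave 1 read in the 4 saline libraries together, in replicate 1, and 0 reads in the other 3, where a count of 0 allows up to 3 reads. In LPS it ranged from 6.31 to 18.0 FPKM with a median of 9.59 FPKM, on 285 to 725 reads a library. The difference of 3.45 (SE 0.25) is held down by the pseudocount, and the ratio of read rates was 1911 with a 95% exact interval of 343 to 75486. Saa2, its near copy, gave 2 reads in saline, both in replicate 4. It ranged from 0.719 to 3.28 FPKM in LPS with a median of 1.52 FPKM. The difference was 1.37 (SE 0.22), and the ratio of read rates was 155 (95% exact interval 42.7 to 1284). Both genes were detected in all 6 LPS libraries, and the level of Saa2 was 0.114 to 0.192 of that of Saa1 there.

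Of the plasma carrier and scavenger proteins, Lcn2 was at 21.5, 3.67, 7.54 and 3.53 FPKM in saline and at 741 to 1818 FPKM, with a median of 1262 FPKM, in LPS. It was the most abundant of the 10 genes in each LPS library and ranked between 14 and 22 among all genes. The difference was 7.25 (SE 0.43), or 7.74 without saline replicate 1. Hp was the gene of the 10 with the highest level in saline, at 94.3, 10.9, 18.1 and 7.50 FPKM, and replicate 1 was far above the other 3. In LPS it ranged from 326 to 888 FPKM with a median of 626 FPKM. The difference was 4.72 (SE 0.58) and became 5.46 without saline replicate 1. Orm1, the drug-binding plasma glycoprotein, gave 8 reads in saline and was at 0.293, 0.175, 0.145 and 0 FPKM. In LPS it ranged from 15.7 to 51.9 FPKM with a median of 26.0 FPKM. Its difference was 4.57 (SE 0.28), and the ratio of read rates was 197 (95% exact interval 100 to 458).

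The WAP genes were also apart between the groups. Wfdc17 was at 22.4, 2.20, 6.93 and 1.72 FPKM in saline and at 266 to 860 FPKM in LPS, with a median of 514 FPKM. The difference was 6.25 (SE 0.55), or 6.88 without saline replicate 1. The protease inhibitor Slpi was at 23.6, 2.60, 6.03 and 2.45 FPKM in saline and at 49.6 to 160 FPKM in LPS, with a median of 96.4 FPKM. Its difference was 3.84 (SE 0.52), or 4.45 without saline replicate 1. The highest saline library of Slpi thus stood closer to the lowest LPS library than for Wfdc17.

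The pattern recognition genes had the lowest ratios of read rates between LPS and saline among the 10, although on the log2(FPKM + 1) scale Saa2 changed less than Pglyrp1. Pglyrp1 was at 12.8, 3.15, 3.60 and 4.34 FPKM in saline and at 20.6 to 71.8 FPKM in LPS, with a median of 41.4 FPKM. The difference was 2.75 (SE 0.38), or 3.145 without saline replicate 1. The ratio of read rates of Pglyrp1 was 7.97 (95% exact interval 7.38 to 8.61, counting error only). It depends on saline replicate 1, as the saline mean of Pglyrp1 was 5.97 FPKM with that library and 3.70 FPKM without it. Ptx3 was at 0, 0.202, 0.0418 and 0.208 FPKM in saline, on 25 reads in all, and at 0.783 to 1.29 FPKM in LPS, with a median of 1.13 FPKM and 40 to 61 reads a library. The difference of Ptx3 was 0.92 (SE 0.12), a value that the pseudocount holds down and that ran from 0.86 to 3.71 over the 9 other settings tried. The ratio of read rates of Ptx3 was 8.60 (95% exact interval 5.72 to 13.5).

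**Figure D2:**
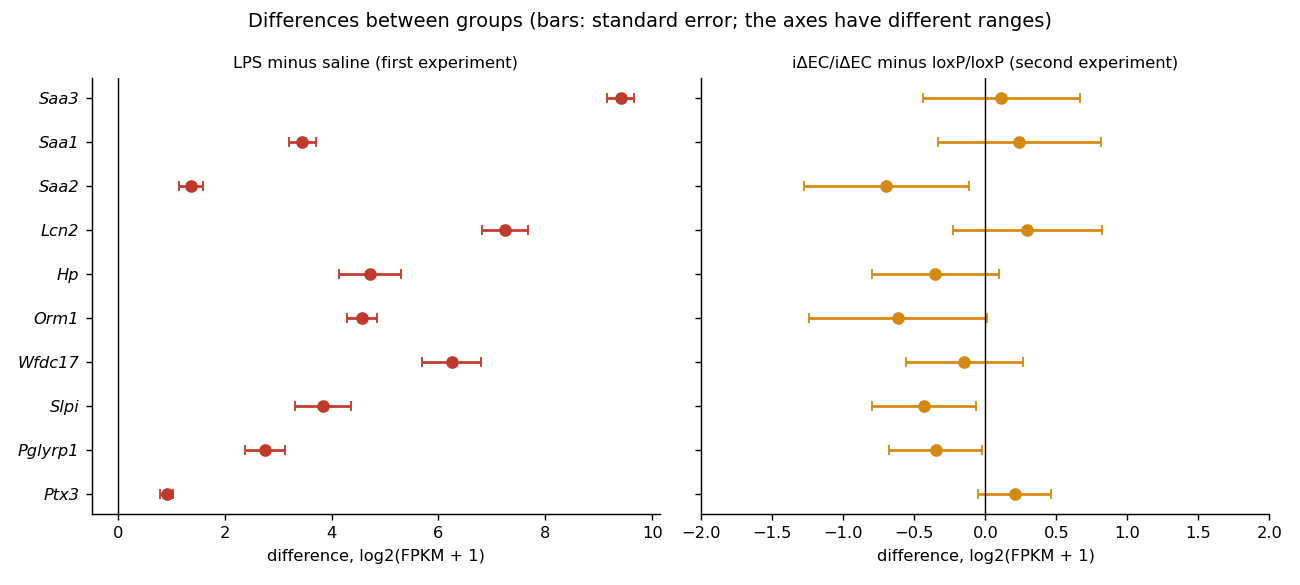
Difference between groups for each gene on the x axis, as means of log2(FPKM + 1), for LPS minus saline on the left and iΔEC/iΔEC minus loxP/loxP on the right, on axes of different range. Points are the differences and bars their standard errors. The differences on the left run from 0.92 to 9.41 and those on the right from -0.70 to 0.30.

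The 10 genes varied more between LPS libraries than most genes did. The SD of log2(FPKM + 1) over the 6 libraries was 0.46 to 0.63 for 9 of them, where the median over all tested genes was 0.256. Ptx3 was the exception, with an SD of 0.13, at the 13.5th percentile of all genes. The same libraries stood at the ends for most of the genes. LPS replicate 2 was highest for 9 of the 10 genes, and replicates 3 and 6 were lowest for 5 each. In saline, replicate 1 was highest for 8 of the 10.

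The order of levels in LPS was Lcn2, Saa3, Hp, Wfdc17, Slpi, Pglyrp1, Orm1, Saa1, Saa2 and Ptx3. Each neighbouring pair stood in this order in all 6 libraries, except Pglyrp1 over Orm1 (5 of 6) and Saa2 over Ptx3 (4 of 6). The ranges of neighbours overlapped, however, in all pairs but Wfdc17 over Slpi and Saa1 over Saa2. In saline the order of mean levels was Hp, Lcn2, Slpi, Wfdc17 and Pglyrp1, followed by the genes near 0. Hp over Lcn2 stood in this order in all 4 libraries, as did Pglyrp1 over Saa3, the next gene, while Lcn2 over Slpi and Slpi over Wfdc17 did in 3 of 4 and Wfdc17 over Pglyrp1 in 2 of 4. Without replicate 1 the means of Slpi (3.70 FPKM), Pglyrp1 (3.70 FPKM) and Wfdc17 (3.62 FPKM) were close. Hp was above Lcn2 in all 4 saline libraries and below it in all 6 LPS libraries.

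Ratios within a library show the change in make-up without any scaling between libraries. The Saa3 to Lcn2 ratio was 0.0114 to 0.0830 in saline, so a transcript hardly detected beside Lcn2 there came to 0.552 to 0.839 of its level in LPS. Saa3 stayed below Lcn2 in all 6 LPS libraries. The Hp to Lcn2 ratio went the other way, from 2.13 to 4.39 in saline to 0.367 to 0.543 in LPS. Pglyrp1 relative to Lcn2 was 0.477 to 1.23 in saline and 0.0233 to 0.0451 in LPS. In the second experiment, under 2 mg/kg LPS, the Saa3 to Lcn2 ratio was 0.158 to 0.231 in loxP/loxP and 0.119 to 0.213 in iΔEC/iΔEC libraries. These lay below all 6 libraries at 10 mg/kg and above all 4 saline libraries. Dose, genotype and experiment differ together between the tables and cannot be told apart, so no test was made.

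**Figure D3:**
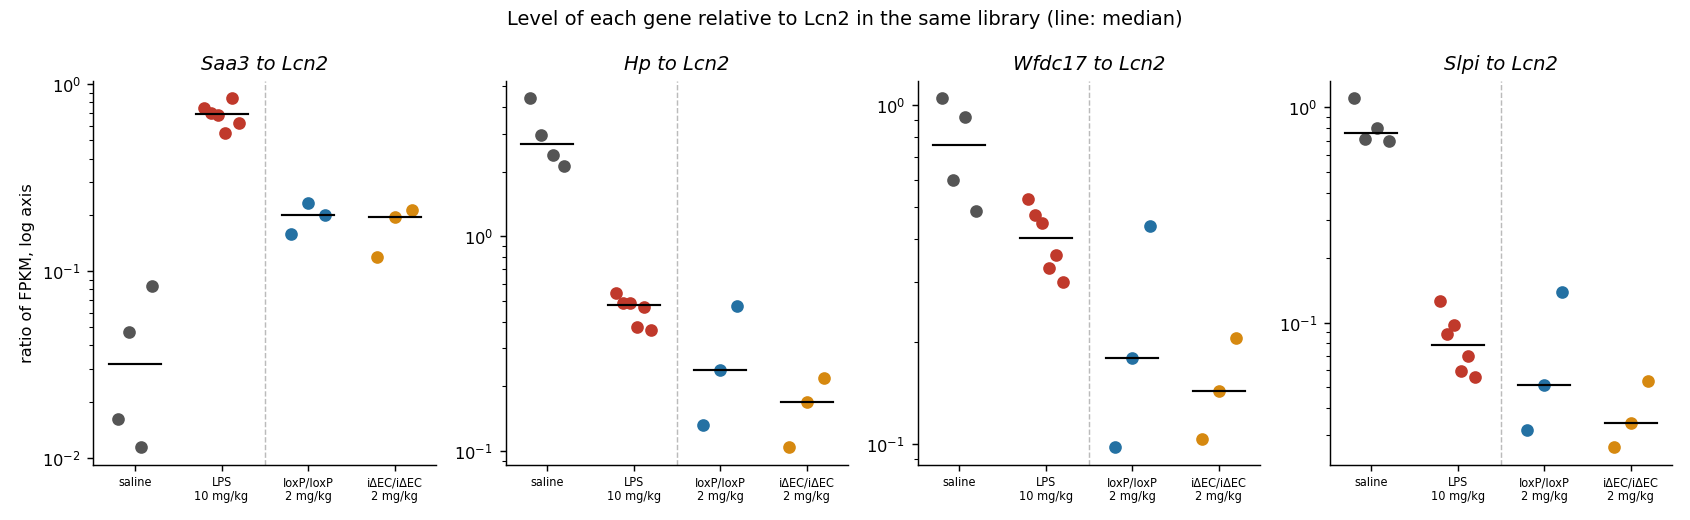
Ratio of the FPKM of Saa3, Hp, Wfdc17 and Slpi to that of Lcn2 in the same library, on log y axes of different range, for the 4 groups on the x axis. Points are libraries and lines are group medians. The Saa3 ratio rises from a median of 0.0317 in saline to 0.695 in LPS while the Hp ratio falls from 2.68 to 0.479.

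The beads were to leave only ECs, but leukocyte transcripts also moved with LPS. All 6 leukocyte markers were called higher, and their summed level was 70.8 to 218 FPKM in saline and 570 to 1432 FPKM in LPS. Among neutrophil markers, 7 of 8 were called higher and the sum was 15.2 to 263 FPKM in saline and 169 to 589 FPKM in LPS, with Retnlg or Csf3r the most abundant. Among macrophage and monocyte markers, 6 of the 7 tested were called higher, among them Csf1r, the receptor for CSF1, which was at 7.13 ± 4.73 FPKM in saline (SD, n = 4) and 211 ± 58.4 FPKM in LPS (SD, n = 6). Their sum was 19.7 to 34.4 FPKM in saline and 339 to 769 FPKM in LPS. The summed endothelial level was 3276 to 5429 FPKM in saline and 1434 to 3382 FPKM in LPS, and 3 of 10 endothelial markers were called lower. These were the VEGF receptor Kdr (log2 difference -1.63, SE 0.28), Tek (-1.20, SE 0.22) and Tie1 (-1.07, SE 0.21), of which Tie1 lost its call without LPS replicate 1 (-0.91). In bulk RNA, fewer cells of a type and less RNA per cell cannot be told apart.

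No epithelial, fibroblast, mesothelial or hepatocyte marker was called higher. Of 9 epithelial markers tested, 4 were called lower and 0 higher, the largest drop being that of Sftpc, surfactant protein C, with 1316 ± 550 FPKM in saline (SD, n = 4) and 280 ± 126 FPKM in LPS (SD, n = 6). Their sum was 1071 to 2819 FPKM in saline and 261 to 942 FPKM in LPS. Of 6 fibroblast markers tested 0 were called, with sums of 36.1 to 62.4 FPKM and 19.3 to 45.8 FPKM. Mesothelial sums were 2.81 to 7.63 FPKM and 0.785 to 1.65 FPKM, and the marker tested, Upk1b, was called lower. Hepatocyte markers, of which 0 of 7 were high enough to test, summed to 0.209 to 1.44 FPKM in saline and 0.0561 to 0.221 FPKM in LPS, and Serpina1c gave 0 reads in both groups.

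Saline replicate 1, the library with the high neutrophil markers, is set beside LPS replicate 6, which had the lowest neutrophil marker level of the LPS libraries. These are 2 libraries, and their values are among those that chose the genes, so this is a description only. The mean neutrophil marker level was 4.04 in saline replicate 1 and 3.90 in LPS replicate 6, on the log2(FPKM + 1) scale. The other leukocyte lists were not matched, with sums of 34.4 and 339 FPKM for the macrophage and monocyte markers and 218 and 570 FPKM for the leukocyte markers. Saline replicate 1 also stood apart in other lists. A list of 20 cytokine and transcription factor genes summed to 1650 FPKM in it and 1587 FPKM in LPS replicate 6. That list was at 375 to 415 FPKM in the other saline libraries. Endothelial markers summed to 5429 FPKM in saline replicate 1, 3276 to 4066 FPKM in the other saline libraries and 3105 FPKM in LPS replicate 6. The level in LPS replicate 6 was 1.61 times that in saline replicate 1 for Pglyrp1, 2.10 times for Slpi, 3.45 times for Hp, 11.9 times for Wfdc17, 41.3 times for Lcn2 and 87.1 times for Orm1. Saa3 was at 0.348 FPKM in saline replicate 1 and 548 FPKM in LPS replicate 6. Among the saline libraries, replicate 1 was highest for 8 of the 10 genes, and Saa2 and Ptx3, the other two, gave 0 reads in it.

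**Figure D4:**
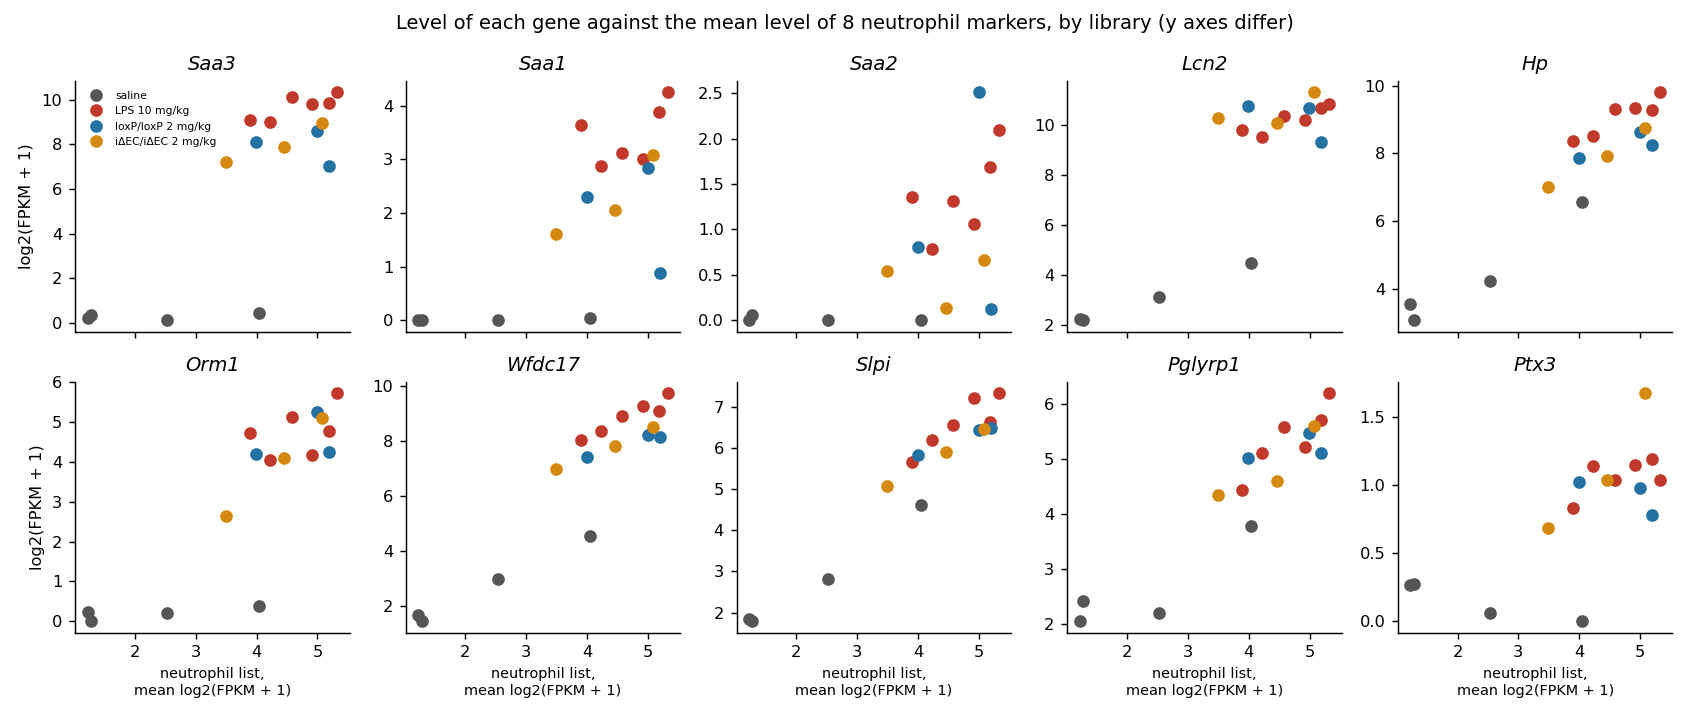
Level of each gene, log2(FPKM + 1) on y axes of different range, against the mean log2(FPKM + 1) of 8 neutrophil markers on the x axis. Points are libraries coloured by group. One saline library lies at 4.04 on the x axis, within the LPS range of 3.90 to 5.32. It lies below every LPS library on the y axis, as does each saline library. The genes were chosen on this contrast, so that order is a description only.

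Within groups that all received LPS, each gene was set against the mean level of the neutrophil, macrophage and endothelial markers over 6 libraries, 60 relations in all. The 10 genes were chosen on the difference between the groups, and these relations use the variation within them. Over the 6 LPS libraries, all 10 genes correlated positively with the neutrophil markers, with Pearson's r of 0.461 to 0.952 and a median of 0.856. The highest was that of Wfdc17, with r = 0.952 (exact permutation p = 0.00417, adjusted p = 0.0556) and Spearman's rho = 0.943 (exact permutation p = 0.0167, adjusted p = 0.143). Without the 2 libraries farthest from the median, replicates 2 and 6, r was 0.868. The lowest were Orm1 (0.461), Saa1 (0.508) and Ptx3 (0.602). None of the LPS relations passed the adjustment over the 60. With the macrophage markers r was -0.39 to 0.747, and with the endothelial markers -0.446 to 0.686. The 10 values come from the same 6 libraries and are not independent. How many of all tested genes have an r of the same sign was not computed, here or in the second experiment. Counts of positive or negative r are therefore a description only.

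Over the 6 libraries of the second experiment, Slpi had r = 0.976 with the neutrophil markers (exact permutation p = 0.00139, adjusted p = 0.0417). Its Spearman's rho was 1 (exact permutation p = 0.00278, adjusted p = 0.0556), and r was 0.988 without loxP/loxP replicate 1 and iΔEC/iΔEC replicate 1. With the macrophage markers Slpi had r = 0.948 (exact permutation p = 0.00139, adjusted p = 0.0417) and rho = 1 (exact permutation p = 0.00278, adjusted p = 0.0556), and r was 0.708 without the same libraries. These were the 2 relations of the 60 that passed by Pearson's r, and 0 passed by Spearman's rho. With the libraries scaled on the endothelial markers, 0 of the 60 passed by Pearson's r. Without that scaling, r with the neutrophil markers was -0.0551 for Lcn2 (exact permutation p = 0.921, adjusted p = 0.952). It was 0.349 for Saa3 (exact permutation p = 0.467, adjusted p = 0.651). Over the 6 LPS libraries of the first experiment, r was 0.893 for Lcn2 (exact permutation p = 0.0264, adjusted p = 0.106). For Saa3 it was 0.820 there (exact permutation p = 0.0528, adjusted p = 0.176). With the endothelial markers all 10 genes had a negative r in the second experiment, from -0.948 to -0.205. The 6 libraries share replicate numbers across the genotypes and were taken as pairs, which the labels do not state. If they are pairs, they are less independent than their number and the p-values may be too small. What part leukocyte RNA has in the levels of the 10 genes was not tested.

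The second experiment compared iΔEC/iΔEC with loxP/loxP libraries, all under LPS. Here the 10 genes can be tested, as their choice did not use this contrast. With no saline group, a changed response to LPS could not be told from a difference already there without it. Fgfr1 itself was at 2.90, 2.91 and 2.60 FPKM in the loxP/loxP libraries, while the iΔEC/iΔEC libraries had 0.682, 1.41 and 1.15 FPKM. The groups did not overlap, which is the order the labels give, with a difference of -0.88 (SE 0.16, limma adjusted p = 0.962). The exact two-sided permutation p was 0.1, the smallest that 3 against 3 libraries can give. No gene of the 14945 tested was called by limma (0%), although 661 (4.42%) had an unadjusted p under 0.05. Limma-voom on the recovered reads also called 0, with 608 at an unadjusted p under 0.05.

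None of the 10 genes was called, and the loxP/loxP and iΔEC/iΔEC libraries overlapped for each of them, where 10.1% of all tested genes had groups that did not overlap. Adjusted p ranged from 0.962 to 0.992 by limma, and exact permutation p from 0.4 to 0.9. Saa3 was at 277, 383 and 128 FPKM in loxP/loxP and at 147, 495 and 235 FPKM in iΔEC/iΔEC libraries, a difference of 0.11 (SE 0.55). Lcn2 was at 1758, 1660 and 642 FPKM and at 1238, 2541 and 1101 FPKM, a difference of 0.30 (SE 0.52). Lcn2 ranked between 7 and 31 among all genes in these 6 libraries, although they had received the lower dose. Saa1 was at 3.94, 6.19 and 0.846 FPKM and at 2.06, 7.50 and 3.15 FPKM, a difference of 0.24 (SE 0.58). The signs of these small differences were not stable. Over the other settings and the omissions of 1 library, the difference ran from -0.36 to 0.51 for Saa3, -0.17 to 0.55 for Lcn2 and -0.32 to 0.66 for Saa1. Of the genes below, Hp (-0.78 to 0.09), Orm1 (-1.20 to 0.04), Wfdc17 (-0.51 to 0.24) and Ptx3 (-0.07 to 0.43) also took both signs, while Slpi (-0.76 to -0.06) and Pglyrp1 (-0.72 to -0.10) stayed negative. Saa2, whose value turns on 1 library, is described last.

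Hp was at 232, 397 and 304 FPKM in loxP/loxP and at 129, 431 and 241 FPKM in iΔEC/iΔEC libraries, a difference of -0.35 (SE 0.45). Orm1 was at 17.3, 37.1 and 18.0 FPKM and at 5.25, 33.6 and 16.1 FPKM, a difference of -0.62 (SE 0.62). Wfdc17 was at 172, 296 and 281 FPKM and at 128, 364 and 225 FPKM, a difference of -0.15 (SE 0.41). The ranges of the genotypes overlapped for all 3 of these genes. Slpi was at 55.6, 85.2 and 89.3 FPKM and at 32.7, 87.3 and 59.1 FPKM, a difference of -0.43 (SE 0.37). Pglyrp1 was at 31.2, 43.5 and 33.4 FPKM and at 19.4, 47.4 and 23.1 FPKM, a difference of -0.35 (SE 0.33). Ptx3 was at 1.03, 0.976 and 0.720 FPKM and at 0.611, 2.20 and 1.05 FPKM, a difference of 0.21 (SE 0.26). The highest library of each of these 3 genes was iΔEC/iΔEC replicate 2, apart from Slpi, where it was loxP/loxP replicate 3.

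Saa2 was at 0.748, 4.69 and 0.0876 FPKM in loxP/loxP and at 0.458, 0.586 and 0.0975 FPKM in iΔEC/iΔEC libraries, a difference of -0.70 (SE 0.58). The mean of the loxP/loxP group rests on replicate 2, with 194 of its 230 reads. Without that library the Saa2 difference was -0.016, and its mean over the other 5 libraries, 0.395 FPKM, was under the 0.5 FPKM needed for a test. Without any other 1 library the difference was -1.21 to -0.54. In loxP/loxP replicate 2 Saa2 was at 0.758 of the level of Saa1, while in the other 5 libraries it was at 0.031 to 0.223. The same library had the highest level of several liver transcripts, with albumin (Alb) at 10.9 FPKM, against 0.754 and 0.353 FPKM in loxP/loxP replicates 1 and 3 and at most 0.655 FPKM in iΔEC/iΔEC libraries. Haemopexin (Hpx) was at 5.60 FPKM there, against 0.628 and 0.626 FPKM in the other loxP/loxP libraries. Other genes of the liver were highest elsewhere, Ahsg in loxP/loxP replicate 1 (1.53 FPKM, against 1.14 FPKM in replicate 2) and Itih4 and Orm2 in replicate 3 (20.2 and 3.27 FPKM, against 12.3 and 2.75 FPKM in replicate 2). The sum of the 7 hepatocyte markers was 19.7 FPKM in loxP/loxP replicate 2, 2.94 and 1.38 FPKM in replicates 1 and 3, and 0.589 to 1.17 FPKM in iΔEC/iΔEC libraries. Whether these transcripts bear on Saa2 was not tested.

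Taken pair by pair, by replicate number, the sign of the difference varied between the pairs. In pair 1, all 10 were lower in the iΔEC/iΔEC library. In pair 2, 8 were higher and 2 lower, and in pair 3, 5 were higher and 5 lower. Orm1 was the one gene of the 10 that was lower in iΔEC/iΔEC in all 3 pairs, with log2 differences of -1.55, -0.14 and -0.15. The iΔEC/iΔEC replicate 2 library was the highest of its group for all 10 genes, and replicate 1 the lowest for 8. With the replicate number as a block the standard errors fell, to 0.18 for Slpi (limma unadjusted p = 0.0649), but adjusted p remained at 0.646 to 0.953 over the 10 genes.

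The other genes of the acute phase and antimicrobial response were taken from 5 lists of 97 genes in all, of which 67 were high enough to test in the first experiment. Of these, 34 (50.7%) were called higher and 5 (7.46%) lower in LPS than in saline, beside 11.9% and 6.79% of all tested genes. The median difference was 1.16, against 0.0133 over all genes. Scaled on the endothelial markers, which put the median difference of all genes at 0.567, 41 were called higher and 2 lower, and Il6st, Slc22a17 and Elane were not called. The lists were drawn up with earlier results of these data known, so their counts are a description.

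Among other acute phase genes, 9 of 14 tested were called higher and 0 lower, with a median of 1.39. Cd14, the LPS co-receptor, was at 25.9 ± 46.5 FPKM in saline (SD, n = 4) and 498 ± 252 FPKM in LPS (SD, n = 6), a difference of 5.76 (SE 0.86, limma adjusted p = 0.000268) that became 6.94 without saline replicate 1. The protease inhibitors of the Serpina3 cluster rose together, with differences of 2.65 for Serpina3f, 2.37 for Serpina3m and 2.35 for Serpina3n (limma adjusted p at most 2.74e-05). Orm2, the near copy of Orm1, was called higher, at 0.478 FPKM in saline and 2.32 FPKM in LPS, as was the copper carrier ceruloplasmin (Cp), at 3.75 and 13.5 FPKM. The LPS-binding protein gene Lbp was at 13.8 FPKM in saline and 7.59 FPKM in LPS and Itih4 at 2.29 and 5.06 FPKM, with differences of -0.81 and 0.93 that were under the limit of 1. Some genes that the liver expresses strongly were at or near 0. Apcs gave 0 reads in both groups, Saa4 at most 7 reads a library, and Fga at most 4. Hpx was at 0.883 ± 0.748 FPKM in saline and 0.459 ± 0.115 FPKM in LPS. These last 8 genes, and those named as not called below, were singled out after their values were seen.

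Among relatives of Slpi, Wfdc17, Pglyrp1 and Ptx3, 3 of 10 tested were called higher and 2 lower, with a median of -0.28. The WAP gene Wfdc21 rose, with 4.96 ± 3.45 FPKM in saline (SD, n = 4) and 177 ± 90.6 FPKM in LPS (SD, n = 6), by 4.90 (SE 0.41, limma adjusted p = 5.75e-06). The stefin Stfa3, a cysteine protease inhibitor, rose by 1.35 (SE 0.32, limma adjusted p = 0.00484). The WAP gene Wfdc1 instead was lower in LPS, with 81.0 ± 35.9 FPKM in saline (SD, n = 4) and 14.9 ± 6.34 FPKM in LPS (SD, n = 6), a difference of -2.39 (SE 0.34, limma adjusted p = 0.000216). The neuronal pentraxin Nptx1 was lower too, with 12.0 ± 2.47 FPKM in saline (SD, n = 4) and 1.18 ± 0.334 FPKM in LPS (SD, n = 6), a difference of -2.57 (SE 0.15, limma adjusted p = 8.63e-07). WAP genes were thus called in both directions. The other pentraxin tested, Nptxr, was not called (-0.38).

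Among granule and secreted antimicrobial genes, 4 of 12 tested were called higher and 1 lower, with a median of 0.0068. S100a8, a calprotectin subunit, rose by 3.91 (SE 0.77, limma adjusted p = 0.00152; 4.82 without saline replicate 1), the chitinase-like Chil3 by 2.76 (SE 0.27, limma adjusted p = 1.66e-05) and lysozyme Lyz2 by 2.07 (SE 0.35, limma adjusted p = 0.000637). Genes of neutrophil primary and secondary granules, which are transcribed in marrow precursors, varied with saline replicate 1. Ngp was at 13.6 FPKM in saline and 33.0 FPKM in LPS and was not called (1.33, limma adjusted p = 0.0532), but it was called higher without saline replicate 1 (1.83, limma adjusted p = 0.00832) and with endothelial scaling (2.01, limma adjusted p = 0.00497). Camp was at 18.5, 2.56, 5.39 and 3.82 FPKM in saline and at a mean of 5.26 FPKM in LPS, with a log2 difference of -0.29 that became 0.21 without saline replicate 1 and was not called either way. Ltf was at 3.56 FPKM in saline and 3.87 FPKM in LPS (0.12, or 0.48 without that library), also not called. Mpo was at 1.82 FPKM in saline, or 0.694 FPKM without replicate 1, and at 0.300 FPKM in LPS (-0.81, not called). Elane, neutrophil elastase and a target of Slpi, was the gene called lower, at 2.54 FPKM in saline and 0.240 FPKM in LPS (-1.20, limma adjusted p = 0.0196). Without saline replicate 1 that call was lost, as the difference fell under the limit of 1 (-0.72, limma adjusted p = 0.0183). It was also lost with no filter on low values (limma adjusted p = 0.0563) and with the replicate block (limma adjusted p = 0.0587).

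Among receptors and binding partners, 6 of 11 tested were called higher and 1 lower, with a median of 2.02. The formyl peptide receptor Fpr2, which serum amyloid A can engage, rose, with 2.25 ± 1.09 FPKM in saline (SD, n = 4) and 172 ± 54.5 FPKM in LPS (SD, n = 6), by 5.72 (SE 0.30, limma adjusted p = 4.46e-07). Fpr1 rose by 5.63 (SE 0.25, limma adjusted p = 2.29e-07) and Tlr2 by 3.32 (SE 0.33, limma adjusted p = 1.97e-05). Trem1, an activating receptor of myeloid cells that Pglyrp1 can bind, rose by 3.76 (SE 0.66, limma adjusted p = 0.000744; 4.62 without saline replicate 1). The gene called lower was Slc22a17, the lipocalin 2 receptor, at 6.51 FPKM in saline and 1.57 FPKM in LPS (-1.56, limma adjusted p = 2.05e-05).

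Among the cytokines and transcription factors that drive acute phase genes, 12 of 20 tested were called higher and 1 lower, with a median of 1.55. Tnf had 0.498 ± 0.169 FPKM in saline (SD, n = 4) and 55.7 ± 26.6 FPKM in LPS (SD, n = 6), a rise of 5.11 (SE 0.31, limma adjusted p = 9.91e-07). Il1b rose by 4.83 (SE 0.94, limma adjusted p = 0.00146), Il1a by 4.71 (SE 0.35, limma adjusted p = 2.72e-06) and the transcription factor Cebpb by 4.29 (SE 0.61, limma adjusted p = 0.000207). Without saline replicate 1 the differences were 6.01 for Il1b and 5.12 for Cebpb, and Il1b was at 4.14 without replicate 2 and 4.21 without replicate 4. Il6, the classical inducer of hepatic acute phase genes, was at 0.0536 FPKM in saline and 1.69 FPKM in LPS, and was called higher (1.31, limma adjusted p = 0.000212). Stat3, which carries its signal, was under the limit of 1 (0.47, limma adjusted p = 0.0486). The gene called lower was Il6st, the gp130 signalling subunit, at 62.0 FPKM in saline and 29.8 FPKM in LPS (-1.06, limma adjusted p = 0.00071), a call that was lost without LPS replicate 1 (-0.95). None of the genes of the 5 lists was called between iΔEC/iΔEC and loxP/loxP libraries. Of the 64 tested, 8 (12.5%) had a limma unadjusted p under 0.05, beside 4.42% of all tested genes. In the same contrast 4 of the 10 epithelial markers did, with a median difference of -1, and 0 were called. Whether these shifts are related was not tested.

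**Figure D5:**
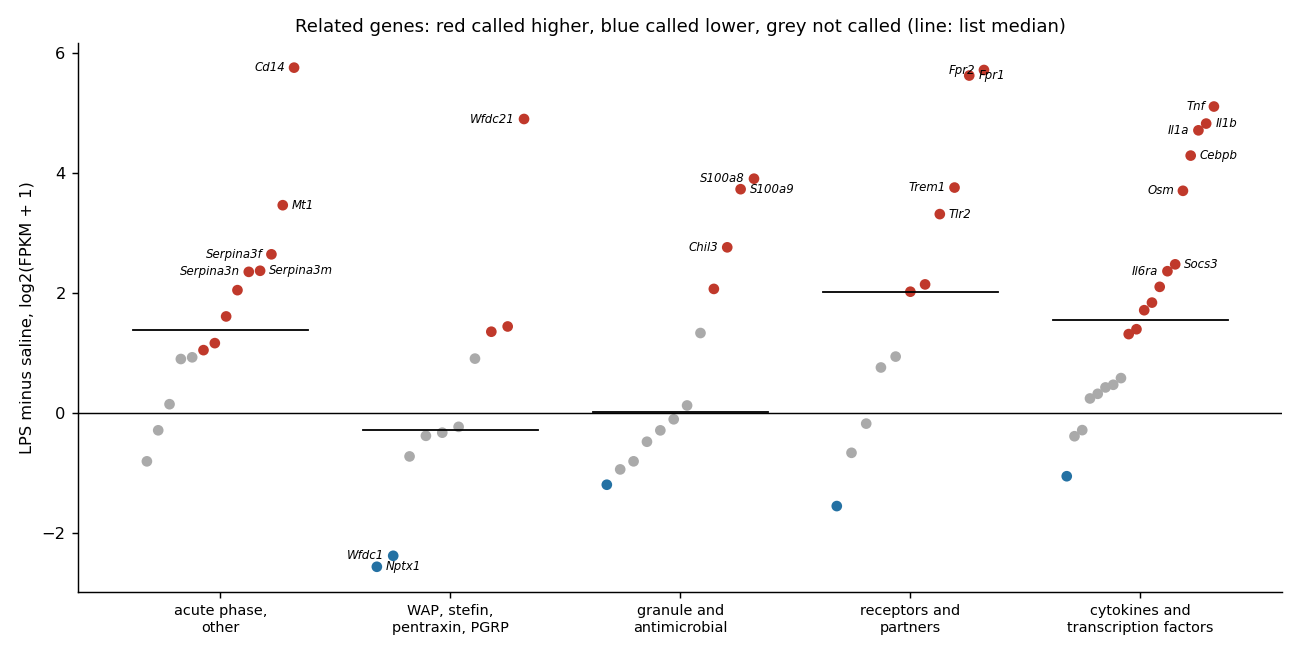
Difference between LPS and saline, as means of log2(FPKM + 1) on the y axis, for the tested genes of the 5 lists on the x axis. Points are genes (red called higher, blue called lower, grey not called), lines are list medians, and genes past 2.3 in size are named. Calls are mostly higher in the acute phase, receptor and cytokine lists, while the granule list has its median at 0.0068.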

How the data were processed

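Per the labels and the study's methods, the authors aligned reads from an Illumina NovaSeq to GRCm38 with HISAT2 2.0.5 and counted them per gene with featureCounts 1.5.0-p3. The authors deposited 2 tables named as FPKM. Their values carry median-of-ratios factors, set separately in each table, so no test was made across them. How the authors normalised, trimming, strandedness and the annotation release are not given in the sources used here.

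Every value above 0 was a whole number of reads within 0.01, and the deposited FPKM were rescaled to median-of-ratios factors computed from these reads (no change in the first table, up to 0.182% in the second). Genes whose mean reached 0.5 FPKM were tested on log2(FPKM + 1) with limma 3.58.1 in R 4.3.3 and Benjamini-Hochberg adjustment over 14893 and 14945 genes, all 10 genes included. In the second experiment the 10 genes and Fgfr1 were also tested by exact two-sided permutation, as were the correlations. Scripts were tested on simulated data.

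In the second experiment, same-numbered libraries deviated together (r = 0.248, 0.178 and 0.187 over genes, each over 0.1), so the numbers were taken to pair the samples, and a fit with the number as a block is given. In the first they did not. Sequences and the promoter table are RefSeq's, and gene positions are from GENCODE on GRCm38.

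The 10 genes, the 5 lists of 97 related genes and the 8 marker lists were chosen with earlier results of these data known. From each list, up to 4 called genes with the largest differences, non-overlapping groups and more than 3 reads in every library of the higher group are named. Intervals cover counting error only.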

Additional observations from a re-analysis of the deposited data

Results flagged for a closer look

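Looking for single libraries that lay apart within a group, 36 sets of values were screened and 3 stood out, where 1.8 would be expected by chance. For Saa1, saline replicate 1 was at 0.0434 on the log2(FPKM + 1) scale and the other 3 saline libraries at 0, which is 1 read. For Saa2, saline replicate 4 was at 0.0571 and the other 3 at 0, which is 2 reads. The mean level of the fibroblast markers was 2.21 in saline replicate 3 on the same scale, against 2.70 to 2.77 in the other 3 saline libraries.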

How the results depend on the processing

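All 10 genes stayed higher in LPS under the 9 other settings and the 10 omissions of 1 library tried for each. The low genes were larger with a pseudocount of 0.1 or with limma-voom, up to 9.42 for Saa1, 6.53 for Saa2, 7.56 for Orm1, 3.71 for Ptx3 and 12.0 for Saa3, since a pseudocount of 1 shrinks them. Over all genes, calls moved from 1768 higher and 1011 lower to 4399 and 3529 with no limit on the difference. Scaling on the endothelial markers gave 4373 higher and 205 lower, a pseudocount of 0.1 gave 1840 lower and limma-voom 2008 lower. With total reads as the scale, 1373 were higher and 1440 lower, and with quantile normalisation 1366 and 1326. Of the related genes, 10 were lower with no limit, 9 with quantile normalisation and 2 with endothelial scaling. Omitting 1 library gave 1641 to 1947 higher and 910 to 1107 lower, and 32 to 36 related genes higher. Endothelial scaling left 0 of the 60 correlations past the adjustment. The cause of these shifts was not tested. With the replicate block, which does not pair the first experiment (r of -0.209 to 0.0972), 1925 were higher and 1063 lower. In the second experiment the block left 0 genes called, 1154 at an unadjusted p under 0.05 and a smallest adjusted p of 0.306, and changed no call. Without any 1 library of that experiment 0 of the genes tested among the 10 was called, and Saa2 was not tested without loxP/loxP replicate 2. Depth limits the saline levels of Saa1 and Saa2, which rest on 1 and 2 reads in all.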
